A study of Homo sapiens with 60 samples.

Results

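HepG2, a human liver carcinoma line, was treated for 24 h with water extracts of herbal medicines, and the messenger RNA of 10 p53 target genes was followed across extracts and doses. The 10 genes, chosen by name, were CDKN1A, MDM2, GDF15, FAS, SESN1, BTG2, FDXR, ZMAT3, RRM2B and TP53INP1. They are 10 of the 60675 genes in the deposited table, and all 10 passed the filter on low counts that left 16167 genes for testing. The extracts were Cinnamomi Cortex, Astragali Radix, Cnidii Rhizoma and Rehmanniae Radix Preparata, which are single herbs, and, as multi-herb formulas, Palmul-tang, Samul-tang and Sagunja-tang, all given at 500, 100 and 20 µg/mL. Vehicle cells received DMSO, written as 0.1% in the sample labels and as 2% in the series design text. Vehicle and each dose of 6 extracts had 3 libraries, which made 57 libraries in 19 groups, and Palmul-tang had 1 library per dose. Whether the replicates of a group were grown separately is not stated in the labels, so p-values rest on a spread between these samples that may be technical only.

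All 10 are protein-coding genes of GRCh38, placed by GENCODE release 29. On chromosome 6 lie CDKN1A (chr6:36676460-36687339) and SESN1 (chr6:108986437-109094819). RRM2B (chr8:102204502-102239118) and TP53INP1 (chr8:94925972-94949411) lie on chromosome 8. The others are BTG2 (chr1:203305491-203309602), ZMAT3 (chr3:179017223-179072279), FAS (chr10:88990582-89015785), MDM2 (chr12:68808176-68850686), FDXR (chr17:74862497-74873031) and GDF15 (chr19:18374731-18389176).

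p53 is a transcription factor that is held low by the ubiquitin ligase MDM2 and accumulates after DNA damage and other stresses. Its targets act in growth arrest, cell death, DNA synthesis and repair, metabolism and the control of p53 itself, and several of them are also induced by other stress pathways. HepG2 cells are often used to study this response in liver-derived cells. p53 binds DNA as a tetramer at pairs of short palindromic half-sites near its target genes.

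Among the RefSeq promoter windows (GRCh38.p14), the stretch of 250 bases before each transcript start was searched on both strands for the p53 half-site of 10 bases. The table held 17 windows of 8 members. The half-site was found in 3 of those 17 windows (17.6%), and in 1957 of the 35116 windows of all genes (5.57%). These 3 are all the matches found in member windows, in FAS, SESN1 and FDXR. Each is printed 5′ to 3′ in the direction of its gene, with the half-site in capitals between 10 flanking bases.

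FAS, chr10:88991299-88991328, plus strand: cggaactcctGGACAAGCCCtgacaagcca

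SESN1, chr6:109009018-109009047, minus strand: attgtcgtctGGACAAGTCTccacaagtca

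FDXR, chr17:74872986-74873015, minus strand: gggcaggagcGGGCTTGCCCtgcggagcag

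The capitals begin 122 bases before the transcript start of their own window in FAS, 49 in SESN1 and 11 in FDXR. In FAS and SESN1 that start lies inside the gene span given above. Their windows at the outer end of the gene (chr10:88990548-88990847 and chr6:109094797-109095096) held no match. These matches are descriptions of sequence only. No match was found in the windows of CDKN1A, MDM2, GDF15, BTG2 and ZMAT3, and this says only that these letters are not within those 250 bases.

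Total counts ran from 16.5 to 34.4 M reads per library with a median of 25.5 M, and the smallest count of any member in any library was 321 reads. Sample codes open with a number of unstated meaning, here named the set. It is 5 in both Cnidii Rhizoma and Rehmanniae Radix Preparata, 6 in both Astragali Radix and Cinnamomi Cortex, and 7 in both Samul-tang and Sagunja-tang, and every title names BatchB. Vehicle codes hold none of these numbers, so a difference from vehicle and a difference between sets cannot be told apart, while a dose trend compares libraries of 1 set. Hepatocyte markers were abundant (ALB at a median of 10010 CPM), and the leukocyte gene PTPRC and the fibroblast genes COL1A2 and DCN had no count in 57, 57 and 55 of the 60 libraries. Of 10 markers of other cell types, 7 passed the filter, among them LYZ (median 1388 CPM), ACTA2 (64.0), CD68 (57.6) and PDGFRB (6.22), which were counted in every library. Replicate 1 of set 6 stood apart from replicates 2 and 3 for several members, and replicate 2 of Samul-tang at 20 µg/mL stood apart for MDM2, GDF15, CDKN1A and RRM2B. Results that turned on these libraries are given with and without them.

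Levels are given as CPM, read counts per 1 M reads after scaling by the TMM method, and differences as log2 fold changes from edgeR's quasi-likelihood test with Benjamini-Hochberg adjustment over all 16167 genes. A gene is said to have risen or fallen where the adjusted p was under 0.05. Per kilobase of exon, GDF15 was the most abundant member in vehicle at 69.0 CPM per kb, followed by CDKN1A at 43.8. MDM2 (17.6), FDXR (14.7) and BTG2 (12.9) lay between. SESN1 (8.81), RRM2B (7.55), ZMAT3 (5.76), TP53INP1 (5.40) and FAS (4.52) were lowest on this scale, which corrects for length but not for which transcript form was made.

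**Figure D1:**
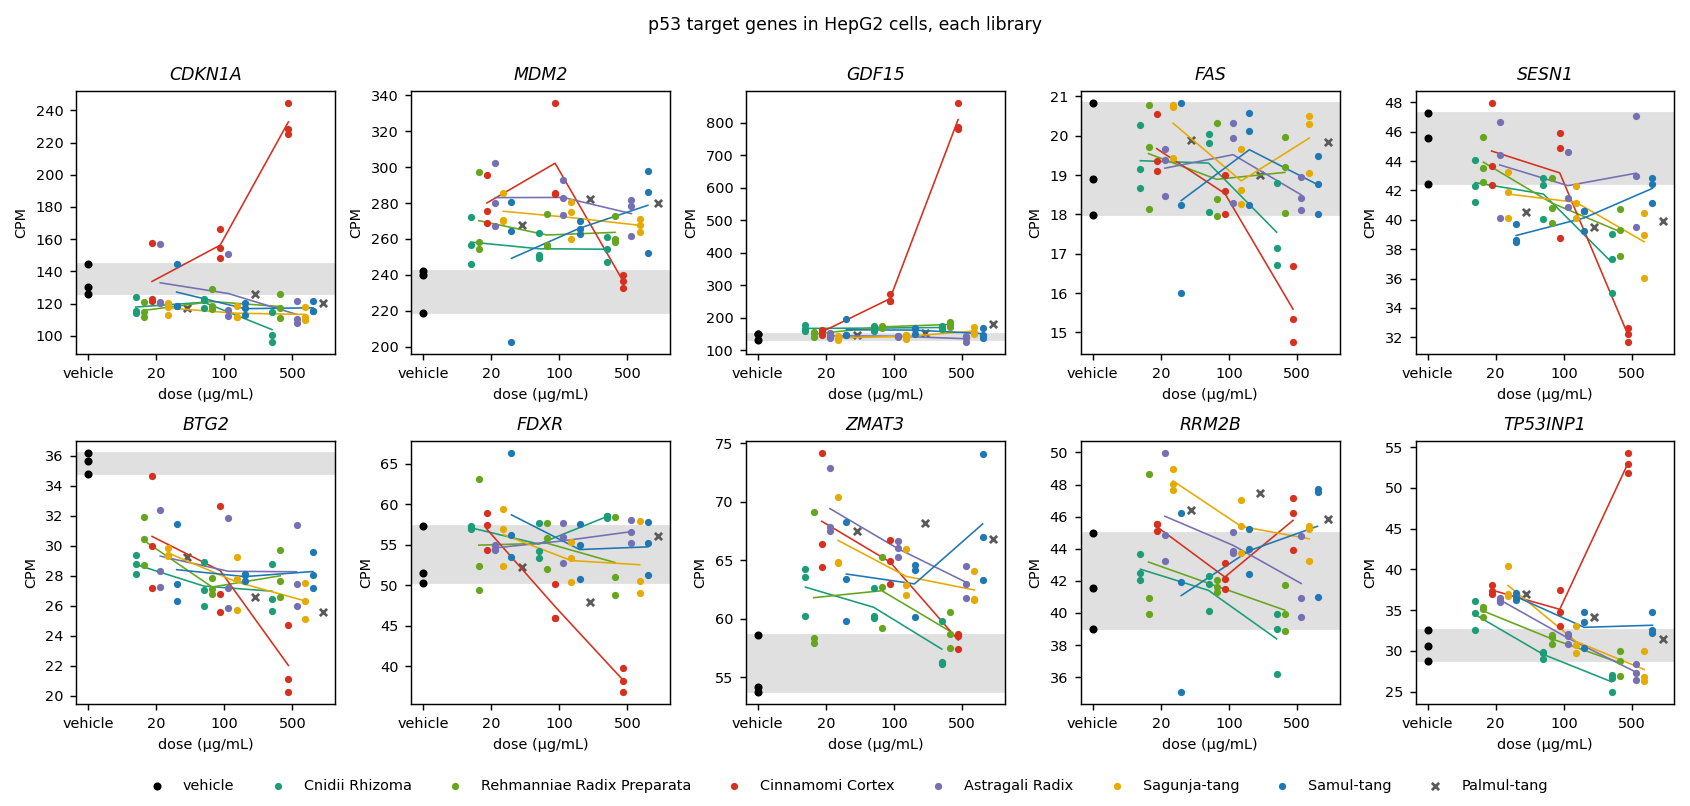
Level of each member in every library (vertical axis, CPM; horizontal axis, vehicle and the 3 doses in µg/mL). Points are libraries, lines join the means of 3 replicates, crosses are the single Palmul-tang libraries and the grey band spans the 3 vehicle libraries. GDF15, CDKN1A and TP53INP1 stood highest with Cinnamomi Cortex at 500 µg/mL, and BTG2 lay below the vehicle band in every treated library.

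With Cinnamomi Cortex at 500 µg/mL the 10 genes split. GDF15, CDKN1A and TP53INP1 rose, BTG2, SESN1, FDXR and FAS fell, and MDM2, ZMAT3 and RRM2B did not pass the test. Thus 7 of 10 members were called, in a comparison in which 62.7% of all tested genes were called, so the count is near the background. The median log2 fold change was 0.04 over the members and -0.02 over all genes. All 7 calls were kept when any single library of either group was left out. In bulk RNA, fewer cells of a type and less RNA per cell cannot be told apart.

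GDF15 encodes a secreted stress cytokine of the TGF-beta family. It measured 149, 150.5 and 133 CPM in the vehicle libraries and 788, 779.8 and 862 CPM with Cinnamomi Cortex at 500 µg/mL. The groups were far apart, with a log2 fold change of 2.49 ± 0.08 (SE), or 5.62-fold (adjusted p = 6.94e-31, edgeR). It showed the largest change of any member in any of the 18 comparisons with vehicle.

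Of the members with roles in growth arrest, CDKN1A and BTG2 went opposite ways. CDKN1A encodes p21, an inhibitor of cyclin-dependent kinases, and measured 145, 126 and 130.2 CPM in vehicle against 245, 228 and 226 CPM. All 3 treated libraries lay above all 3 vehicle libraries, by 0.80 ± 0.09 on the log2 scale (adjusted p = 5.93e-11, edgeR). BTG2, an antiproliferative gene whose product promotes mRNA deadenylation, measured 36.2, 34.8 and 35.6 CPM in vehicle. With the extract it measured 24.7, 20.2 and 21.1 CPM, below every vehicle library, and fell by 0.69 ± 0.08 (adjusted p = 8.55e-10, edgeR).

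The members tied to cell death and autophagy also diverged. TP53INP1, a stress-induced nuclear protein that takes part in p53 signalling and autophagy, measured 30.6, 28.7 and 32.6 CPM in vehicle and 51.8, 52.9 and 54.3 CPM with the extract. It rose by 0.79 ± 0.05 (adjusted p = 4.56e-18, edgeR), with all treated libraries above all vehicle libraries. FAS, the death receptor of the Fas ligand, measured 20.8, 17.98 and 18.9 CPM in vehicle and 15.3, 14.8 and 16.7 CPM with the extract. FAS fell by 0.30 ± 0.07 (adjusted p = 0.000296, edgeR), again with no overlap.

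Among the members that act in redox metabolism and nucleotide supply, both that were called fell. SESN1, a sestrin that restrains the growth kinase mTORC1, measured 47.3, 42.4 and 45.6 CPM in vehicle and 32.6, 31.7 and 32.2 CPM with the extract. It fell by 0.49 ± 0.06 (adjusted p = 1.22e-09, edgeR). FDXR, a mitochondrial reductase that passes electrons to ferredoxin, measured 51.5, 57.4 and 50.3 CPM in vehicle and 39.8, 38.2 and 36.8 CPM with the extract, and fell by 0.47 ± 0.08 (adjusted p = 3.66e-07, edgeR). RRM2B encodes the p53-inducible small subunit of ribonucleotide reductase. Its values were 45.0, 39.0 and 41.6 CPM in vehicle and 43.9, 46.2 and 47.1 CPM with the extract, which overlapped (log2 0.13, 95% interval 0.00 to 0.26, adjusted p = 0.0896, edgeR).

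MDM2, the feedback inhibitor of p53, was at the vehicle level at this dose, with 239.9, 237 and 233 CPM against 242, 219 and 239.7 CPM. The log2 difference was 0.02 with a 95% interval of -0.12 to 0.16 (adjusted p = 0.846, edgeR). ZMAT3, an RNA-binding zinc finger protein, gave 58.7, 58.5 and 57.4 CPM against 58.6, 54.2 and 53.7 CPM, a log2 difference of 0.07 with an interval of -0.04 to 0.18 (adjusted p = 0.301, edgeR). Their groups overlapped.

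Other measures moved in the same libraries. The share of counts from mitochondrial genes was 14.4 to 16.7% in vehicle and 19.4 to 22.3% with Cinnamomi Cortex at 500 µg/mL. The summed level of 10 hepatocyte markers was 60380 to 62470 CPM in vehicle and 71970 to 72220 CPM with the extract. The markers did not move together, since 5 rose, 3 fell and 2 were not called. Most of the gain in the sum was SERPINA1 (10250 against 18370 CPM on average). For 10 markers of other cell types it was 1286 to 1427 against 3112 to 3509 CPM, most of it LYZ (1224 against 3161 CPM on average), while PTPRC, COL1A2 and DCN stayed at or near 0. CD68 (58.4 to 141.7 CPM) and PDGFRB (6.56 to 16.8 CPM) also rose, and ACTA2 fell by 0.24. The part of these shifts in the members' changes was not tested.

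**Figure D2:**
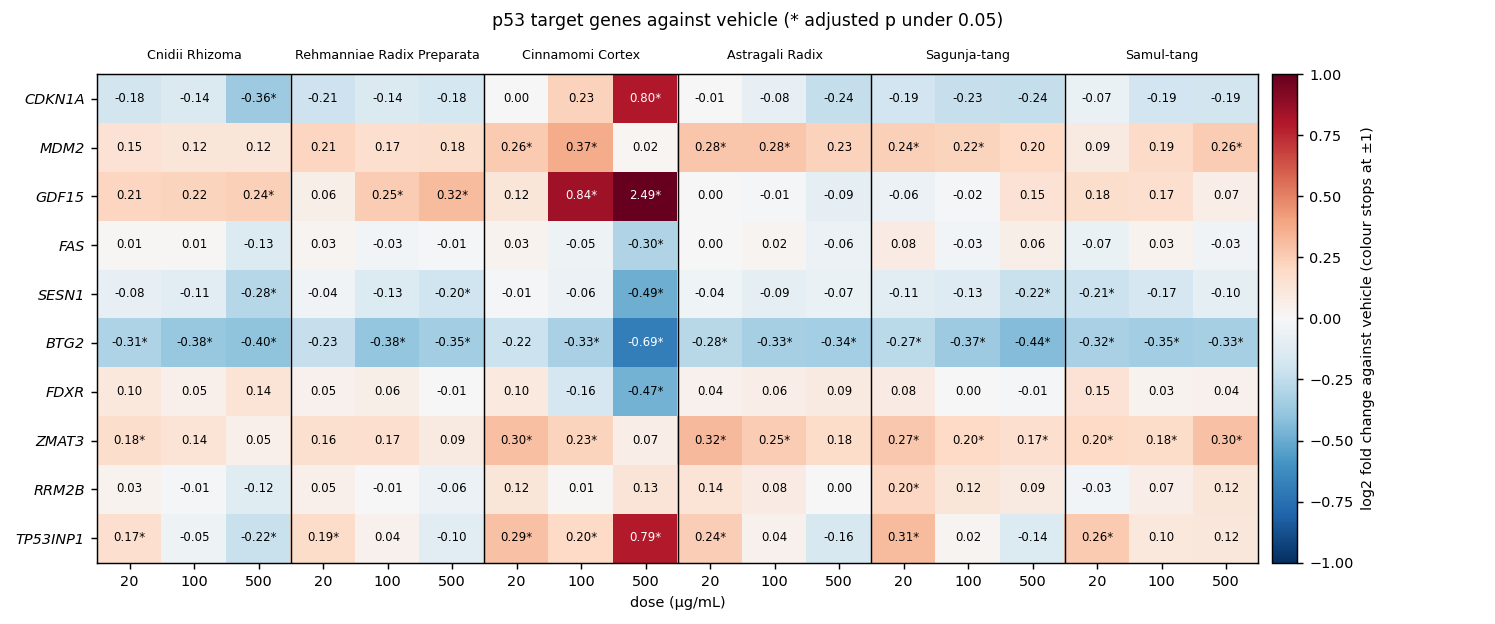
Log2 fold change of each member against vehicle for 6 extracts at 3 doses in µg/mL, with 3 libraries per group. Red is higher and blue lower than vehicle, colour stops at ±1, and stars mark an adjusted p under 0.05. BTG2 was negative and MDM2 and ZMAT3 positive in all 18 columns, while CDKN1A was positive with Cinnamomi Cortex only.

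Over the 3 doses of Cinnamomi Cortex the members followed different courses. GDF15 measured 160.1, 162 and 147 CPM at 20 µg/mL and 253, 272 and 251 CPM at 100 µg/mL, before the 779.8 to 862 CPM at 500 µg/mL. It rose at each step, by 0.73 from 20 to 100 and by 1.65 from 100 to 500 µg/mL on the log2 scale.

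CDKN1A measured 157, 122 and 121 CPM at 20 µg/mL and 167, 154 and 148 CPM at 100 µg/mL. Its difference from vehicle at 100 µg/mL was 0.23 (adjusted p = 0.0687, edgeR), which passed the test with a replicate block (0.041), a block within set (0.00518) or no filter on low counts (0.00349). It rose by 0.58 from 100 to 500 µg/mL. TP53INP1 was above all vehicle libraries at each dose, with 38.1, 37.0 and 37.4 CPM at 20 and 37.5, 33.0 and 34.8 CPM at 100 µg/mL. It rose against vehicle by 0.29, 0.20 and 0.79 at 20, 100 and 500 µg/mL, and the call at 100 µg/mL was lost without vehicle replicate 2 (adjusted p = 0.076) or Cinnamomi Cortex replicate 1 at that dose (0.0849).

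MDM2 was highest at the middle dose. It measured 295, 269 and 276 CPM at 20 µg/mL and 336, 285 and 285 CPM at 100 µg/mL, all above vehicle, and returned to the vehicle range at 500 µg/mL. It rose against vehicle by 0.26 at 20 µg/mL (adjusted p = 0.0162, edgeR) and by 0.37 at 100 µg/mL (9.08e-05), and fell by 0.35 from 100 to 500 µg/mL. The call at 20 µg/mL was lost without vehicle replicate 2 (adjusted p = 0.11), without Cinnamomi Cortex replicate 1 at that dose (0.0748) and without the replicate 1 libraries of set 6 (0.063). MDM4, the MDM2 relative that also binds p53, went from 0.30 and 0.26 above vehicle at 20 and 100 µg/mL to 0.28 below it at 500 µg/mL (adjusted p = 0.00653, edgeR).

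In all, 3 of 10 members were called at 20 µg/mL against vehicle (background 7.16%), 5 at 100 µg/mL (19.4%) and 7 at 500 µg/mL. ZMAT3 rose at the lower doses by 0.30 and 0.23, and BTG2 fell by 0.33 at 100 µg/mL (adjusted p = 0.00278, edgeR). From 20 to 100 µg/mL, GDF15 and FDXR were called (background 7.43%), and FDXR, which fell by 0.26, lost the call without set 6 replicate 1 (adjusted p = 0.0888). From 100 to 500 µg/mL, 9 members were called (55.4%), all but RRM2B at 0.12 (adjusted p = 0.147). Without set 6 replicate 1, FAS (adjusted p = 0.0521) and ZMAT3 (0.0888) lost that call. As a linear trend, given as log2 change per 5-fold step in dose, 9 of 10 members were called and 61.9% of all genes were. With 3 evenly spaced steps this trend is the 500 against 20 µg/mL difference divided over the 2 steps, so the libraries at 100 µg/mL carry no weight in it.

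The trend of Cinnamomi Cortex was tested against that of each of the other 5 extracts. GDF15, CDKN1A and TP53INP1 had more positive trends, and SESN1, BTG2 and FDXR more negative ones, than with each of the 5. For BTG2 the call against Sagunja-tang (adjusted p = 0.0285, edgeR) was kept in 15 of 19 alternatives (up to 0.15) and that against Rehmanniae Radix Preparata (0.0118) in 18 (up to 0.0737). The number of members called was 6 against Cnidii Rhizoma (background 50.6%), 7 against Rehmanniae Radix Preparata (48.4%), 7 against Astragali Radix (50.9%), 7 against Sagunja-tang (50%) and 9 against Samul-tang (54%). Astragali Radix has the same set number, and at 500 µg/mL its libraries measured 144, 137 and 125 CPM for GDF15 and 122, 108 and 110.3 CPM for CDKN1A. Against those libraries, Cinnamomi Cortex at 500 µg/mL gave 8 called members (62.7%), with GDF15 higher by 2.58, CDKN1A by 1.04 and TP53INP1 by 0.95.

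**Figure D3:**
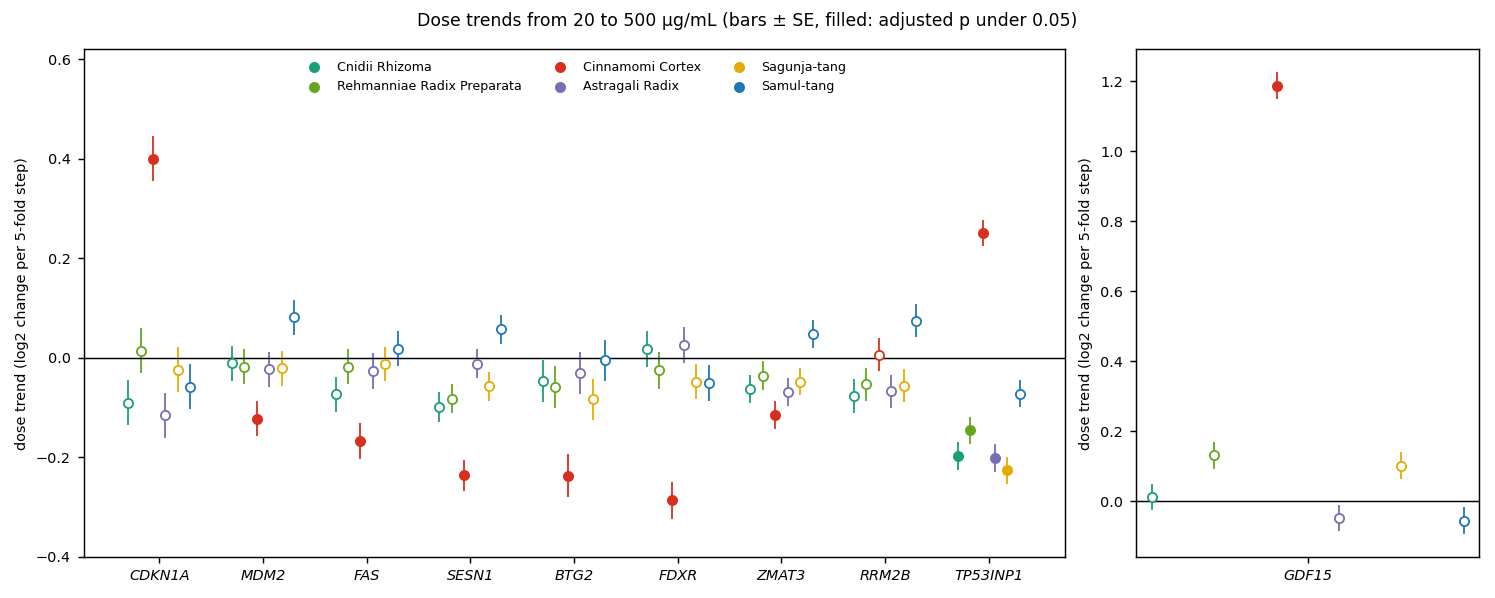
Linear dose trend of each member with each extract (vertical axis, log2 change per 5-fold step from 20 to 500 µg/mL; bars are ± SE, from the 3 libraries at each of 20 and 500 µg/mL and the spread over all 57 libraries; GDF15 has its own axis). Filled points have an adjusted p under 0.05. TP53INP1 has filled points in 5 extracts, below 0 in 4 of them and above 0 with Cinnamomi Cortex.

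TP53INP1 had a called dose trend in 4 extracts other than Cinnamomi Cortex, and there the direction was the opposite. No other member did in this fit, but SESN1 with Cnidii Rhizoma (adjusted p = 0.0356, DESeq2; 0.0411 with a replicate block) and GDF15 with Rehmanniae Radix Preparata (0.0318, DESeq2) passed in others. With no filter on low counts, GDF15 with Rehmanniae Radix Preparata (0.000385) and Sagunja-tang (0.0241) and CDKN1A with Astragali Radix (0.0162) did. With Sagunja-tang TP53INP1 measured 36.8, 37.0 and 40.4 CPM at 20, then 33.0, 30.7 and 29.8 CPM at 100 and 26.9, 29.9 and 26.4 CPM at 500 µg/mL. With Cnidii Rhizoma it measured 32.6, 34.6 and 36.2 CPM, then 29.9, 29.01 and 29.8 CPM, and then 24.9, 27.1 and 26.6 CPM at those doses. With Astragali Radix it measured 36.5, 36.3 and 36.0 CPM, then 30.9, 31.8 and 32.0 CPM, and then 26.5, 27.2 and 28.5 CPM. In these 3 extracts, and also with Rehmanniae Radix Preparata and Samul-tang, the libraries at 500 µg/mL all lay below those at 20 µg/mL.

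Its trend was -0.23 ± 0.03 per step with Sagunja-tang (adjusted p = 6.96e-08, edgeR), -0.20 ± 0.03 with Cnidii Rhizoma (2.62e-06) and -0.20 ± 0.03 with Astragali Radix (4.81e-06). With Rehmanniae Radix Preparata it was -0.15 ± 0.03 (0.00134), from 34.1, 35.4 and 35.1 CPM at 20 to 30.01, 28.7 and 26.9 CPM at 500 µg/mL. TP53INP1 was thus 1 of 10 members called in each of these 4 trends, where 4.99%, 3.22%, 1.16% and 0.674% of all genes were called. All 4 calls were kept whichever library was left out, with the highest adjusted p at 0.0421 for Rehmanniae Radix Preparata.

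With Samul-tang the trend of TP53INP1 was -0.07 ± 0.03 (adjusted p = 0.0772, edgeR), with 36.7, 37.1 and 36.2 CPM at 20 and 34.8, 32.5 and 32.1 CPM at 500 µg/mL. No member was called in this trend (background 9.88%; 3 members at an unadjusted p under 0.05, and 0 by DESeq2). The trends of Sagunja-tang and Samul-tang differed by -0.15 for TP53INP1, which did not pass the test (adjusted p = 0.0745, edgeR). In that difference between trends 0 members were called by edgeR (background 0.142%), 6 had an unadjusted p under 0.05 and DESeq2 called 1.

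Seen against vehicle, the TP53INP1 levels straddled the vehicle range of 28.7 to 32.6 CPM. At 20 µg/mL it rose with all 6 extracts, by 0.17 to 0.31. The calls with Cnidii Rhizoma (adjusted p = 0.0428, edgeR) and Rehmanniae Radix Preparata (0.0261) were each kept in 7 of 13 alternatives, with adjusted p up to 0.242 and 0.214. Those with Astragali Radix and Samul-tang were kept in 12 of 13. At 500 µg/mL it fell with Cnidii Rhizoma, by 0.22 (adjusted p = 0.00537, edgeR), and its differences were -0.10 with Rehmanniae Radix Preparata, -0.16 with Astragali Radix, -0.14 with Sagunja-tang and 0.12 with Samul-tang, none of which passed the test. The call with Cnidii Rhizoma was lost without vehicle replicate 3 (adjusted p = 0.0592) or Cnidii Rhizoma replicate 1 (0.0552).

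BTG2 had the same sign against vehicle in every group. Its lowest vehicle library was 34.8 CPM, and all 51 treated libraries outside Cinnamomi Cortex at 500 µg/mL lay below that, between 25.1 and 34.7 CPM. It fell in 16 of the 18 comparisons with vehicle, by 0.27 to 0.69, and in 11 of these the call was kept whichever library was left out. Group means at 500 µg/mL were 27.0 ± 1.64 CPM (SD, n = 3) with Cnidii Rhizoma, 28.0 ± 1.58 with Rehmanniae Radix Preparata, 28.2 ± 2.80 with Astragali Radix, 26.3 ± 1.20 with Sagunja-tang and 28.3 ± 1.19 with Samul-tang, against 35.5 ± 0.70 in vehicle.

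Outside Cinnamomi Cortex no dose trend of BTG2 was called. Its trends in the other 5 extracts ran from -0.08 to -0.01 per step. When the libraries at 20 µg/mL, averaged over the 6 extracts, replaced vehicle as the reference, all 5 calls at 500 µg/mL outside Cinnamomi Cortex were lost, at -0.13, -0.08, -0.07, -0.17 and -0.06 for Cnidii Rhizoma, Rehmanniae Radix Preparata, Astragali Radix, Sagunja-tang and Samul-tang. The call with Astragali Radix at 500 µg/mL was also lost without vehicle replicate 1 (adjusted p = 0.057), Astragali Radix replicate 2 (0.0704) or replicate 3 (0.12).

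MDM2 and ZMAT3 were positive against vehicle in all 18 comparisons. Outside Cinnamomi Cortex at 500 µg/mL, 50 of 51 treated libraries lay above the highest vehicle library for MDM2, and the exception was replicate 2 of Samul-tang at 20 µg/mL (202 CPM, against 265 and 281 in the other 2). Without it, MDM2 rose in that group by 0.22 (adjusted p = 0.017, edgeR), against 0.09 (0.383) with it. For ZMAT3, 46 of 51 lay above and 0 below the vehicle range. MDM2 rose in 7 of the 18 comparisons and ZMAT3 in 11, but only 1 of the MDM2 calls and 5 of the ZMAT3 calls were kept whichever library was left out. With Astragali Radix at 20 µg/mL, for example, ZMAT3 measured 72.9, 67.5 and 67.9 CPM and MDM2 302, 267 and 280.0 CPM, all above vehicle. Neither gene had a called trend outside Cinnamomi Cortex. When the libraries at 20 µg/mL replaced vehicle as the reference, their calls at 500 µg/mL were lost. The differences were then 0.05 for MDM2 with Samul-tang, and 0.06 and -0.07 for ZMAT3 with Samul-tang and Sagunja-tang.

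SESN1 was negative against vehicle in all 18 comparisons and fell in 5. At 500 µg/mL it measured 35.0, 37.3 and 39.0 CPM with Cnidii Rhizoma, and fell by 0.28 (adjusted p = 0.00111, edgeR), which was kept whichever library was left out. With Sagunja-tang it measured 39.0, 40.5 and 36.0 CPM and fell by 0.22, and with Rehmanniae Radix Preparata 37.5, 39.3 and 40.7 CPM and fell by 0.20. Every one of these 9 libraries lay below the lowest vehicle library of 42.4 CPM, but both latter calls were lost without vehicle replicate 1 (adjusted p = 0.0513 and 0.161). Leaving out Sagunja-tang replicate 3 (0.0629), or vehicle replicate 3 (0.0782) or Rehmanniae Radix Preparata replicate 1 (0.137) or 2 (0.072), had the same outcome.

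CDKN1A was negative in the 15 comparisons outside Cinnamomi Cortex and fell in 1 of them. With no filter on low counts it was called lower in 9 more (adjusted p 0.00106 to 0.0424), and with a replicate block in 1 more, Sagunja-tang at 500 µg/mL (0.0487). With Cnidii Rhizoma at 500 µg/mL it measured 101, 115 and 96.0 CPM, below all vehicle libraries, and fell by 0.36 (adjusted p = 0.00585, edgeR). That call was lost without vehicle replicate 1 (adjusted p = 0.0616) or Cnidii Rhizoma replicate 3 (0.0517). Of the 51 treated libraries outside Cinnamomi Cortex at 500 µg/mL, 43 lay below the vehicle range and 6 above it. These 51 include Cinnamomi Cortex at 100 and 20 µg/mL. Those above were all Cinnamomi Cortex libraries at 100 µg/mL, its replicate 1 at 20 µg/mL, and replicate 1 of Astragali Radix at 100 and 20 µg/mL.

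GDF15 rose in 2 other herbs. With Rehmanniae Radix Preparata at 500 µg/mL it measured 171, 179 and 188 CPM and rose by 0.32 (adjusted p = 0.00538, edgeR), and at 100 µg/mL 169, 172 and 174 CPM, by 0.25 (adjusted p = 0.0396, kept in 6 of 13 alternatives, up to 0.199). With Cnidii Rhizoma at 500 µg/mL it measured 175, 166 and 169 CPM and rose by 0.24 (adjusted p = 0.029). All 9 libraries were above the highest vehicle library. The Cnidii Rhizoma call was lost without vehicle replicate 1 (adjusted p = 0.0596) or 3 (0.174) or Cnidii Rhizoma replicate 1 (0.117) or 3 (0.0715), and the Rehmanniae Radix Preparata call at 500 µg/mL without vehicle replicate 3 (0.0518).

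Counted by extract at 500 µg/mL against vehicle, 5 of 10 members were called with Cnidii Rhizoma (background 11.8%), 3 with Rehmanniae Radix Preparata (7.45%) and 1 with Astragali Radix (3.04%). With Sagunja-tang 3 were called (12.3%), including ZMAT3, which rose by 0.17 (adjusted p = 0.0379, edgeR) and lost the call in 5 of the fits that left out 1 library (adjusted p 0.0619 to 0.144). With Samul-tang 3 were called (13.7%), including ZMAT3 at 67.0, 63.3 and 74.1 CPM, higher by 0.30, and MDM2, higher by 0.26. The MDM2 call was lost without vehicle replicate 2 (adjusted p = 0.0895) or Samul-tang replicate 3 (0.108). With each of these 5 extracts the share of members called was above the background. This is a description only, since the members were chosen with earlier results of these data known. BTG2 was among the calls with all 5, and those BTG2 calls were lost with the 20 µg/mL groups as reference. It was the only call with Astragali Radix, where some fits that left out 1 library gave 0. The comparisons share the 3 vehicle libraries. In replicate 1 at 500 µg/mL the mitochondrial share was 22.6% with Cnidii Rhizoma and 20.4% with Rehmanniae Radix Preparata, above the vehicle range, and its part in these counts was not tested.

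At the 12 lower-dose groups of these 6 extracts together, 36 member calls were made against vehicle, and 20 when vehicle replicate 2 was left out. The numbers called were 1 with Cnidii Rhizoma at 100 µg/mL (background 3.58%) and 3 at 20 (6.49%), 2 with Rehmanniae Radix Preparata at 100 (4.17%) and 1 at 20 (7.18%), and 3 with Astragali Radix at 100 (2.26%) and 4 at 20 (3.93%). For the formulas they were 3 with Sagunja-tang at 100 (8.85%) and 5 at 20 (11.4%), and 2 with Samul-tang at 100 (8.08%) and 4 at 20 (20.7%). RRM2B rose in 1 comparison with vehicle, with Sagunja-tang at 20 µg/mL, at 47.7, 49.0 and 48.0 CPM and by 0.20 (adjusted p = 0.0341, kept in 8 of 13 alternatives, up to 0.217). FAS and FDXR were called against vehicle with Cinnamomi Cortex and no other extract in this fit, though FDXR passed with Samul-tang at 20 µg/mL without its replicate 3 (adjusted p = 0.0466).

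Extracts of 1 set were compared directly at 500 µg/mL. Cnidii Rhizoma against Rehmanniae Radix Preparata gave 0 called members (background 0.705%; 1 had an unadjusted p under 0.05, and DESeq2 called 0). The widest difference was -0.18 for CDKN1A, with a 95% interval of -0.36 to 0.00. Sagunja-tang against Samul-tang gave 1 (0.885%), TP53INP1, lower by 0.26 (adjusted p = 0.00895, edgeR) with no overlap between libraries. It was lost without replicate 1 of either formula (adjusted p = 0.0646 for Sagunja-tang and 0.0754 for Samul-tang) or replicate 3 of Sagunja-tang (0.0742), and when only the 2 compared groups entered the fit (0.402).

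Other genes of the pathway were read from lists at Cinnamomi Cortex 500 µg/mL against vehicle, where 31.1% of all genes rose and 31.6% fell and the median of all genes was -0.02. Of 12 further targets in arrest and signalling 3 rose and 3 fell (median -0.02). SFN, a 14-3-3 protein, rose from 34.0 to 92.6 CPM, and E2F7, a repressive E2F factor, fell by 1.31. Of 19 cell death targets 9 rose and 3 fell (median 0.31), with PERP, a membrane protein, going from 109 to 243 CPM and PIDD1 falling by 1.26. All 6 DNA repair targets fell (median -0.59). Of these, PCNA, the sliding clamp of DNA polymerase, went from 317 to 146 CPM, and XPC, a sensor of bulky DNA lesions, fell by 0.84.

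Of 14 tested targets in metabolism or secretion 8 rose and 2 fell (median 0.42). SESN2, the paralogue of SESN1, rose from 27.0 to 49.4 CPM while SESN1 fell. Of the 18 tested genes in the list of p53 regulators, 6 rose and 9 fell (median -0.21), among them the checkpoint kinases CHEK2 and CHEK1, which fell by 1.24 and 0.74. All 21 cell cycle genes that p21 is known to repress through the DREAM complex fell (median -1.12), with TOP2A, the DNA topoisomerase of dividing cells, at 117 CPM against 499.8 CPM in vehicle. All 13 tested genes of the ATF4 stress response rose (median 1.56), a set that includes ATF4 itself at 793 against 403 CPM and the cystine transporter SLC7A11, higher by 2.32.

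Relatives of the members went both ways. Of 15 tested, 8 rose and 5 fell (median 0.27). TP53INP2 rose by 1.20, as TP53INP1 did, while BTG1 rose from 21.9 to 50.6 CPM where BTG2 fell. The other ribonucleotide reductase subunits, RRM1 and RRM2, fell by 1.09 and 0.58 while RRM2B was not called.

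With the other 5 extracts at 500 µg/mL, PCNA fell in all 5, by 0.18 to 0.38. It was the only 1 of the 6 DNA repair targets that fell with any of them. In the same list 1 gene rose with Sagunja-tang and 2 with Samul-tang. Of the 21 cell cycle genes 1, 0, 0, 6 and 1 rose and 1, 1, 1, 1 and 2 fell with Cnidii Rhizoma, Rehmanniae Radix Preparata, Astragali Radix, Sagunja-tang and Samul-tang. Of the 13 ATF4 genes 3, 3, 1, 2 and 3 rose and 0, 1, 3, 6 and 3 fell in that order. Of all tested genes 11.8%, 7.45%, 3.04%, 12.3% and 13.7% were called in either direction with these extracts. Of the 12 arrest and signalling targets, at most 1 was called with any of the 5. That 1 was GADD45A, lower, with Astragali Radix, Sagunja-tang and Samul-tang and CCNG1, lower, with Cnidii Rhizoma.

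**Figure D4:**
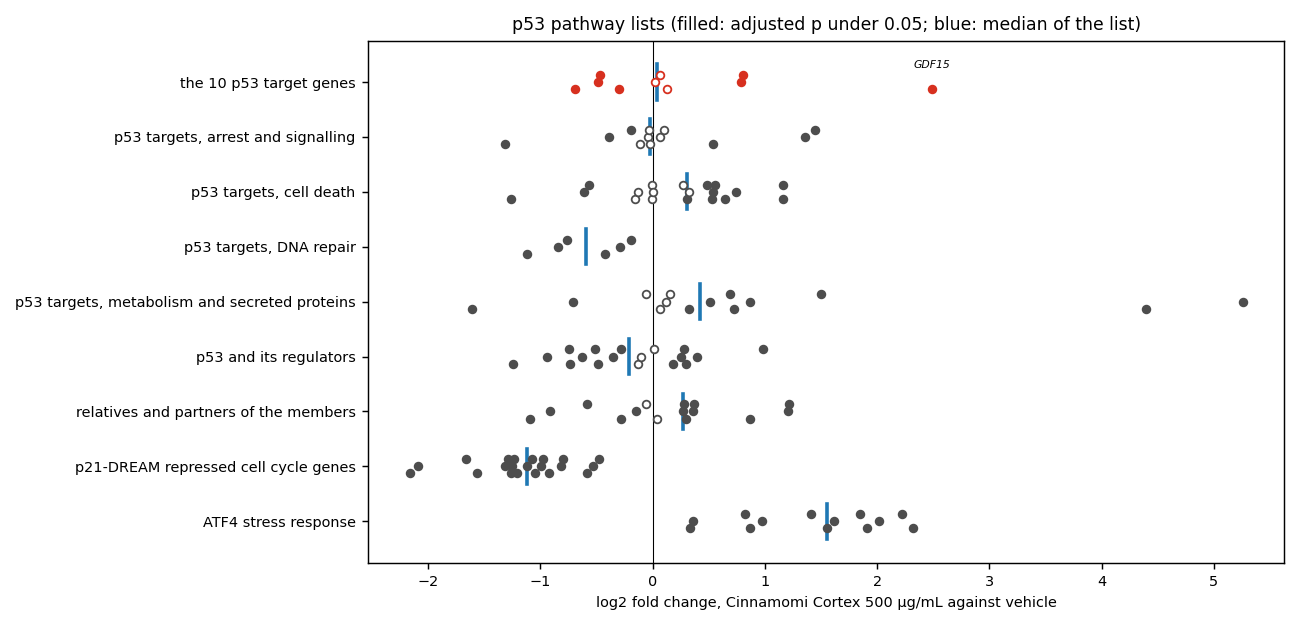
Log2 fold change of the members and of the other tested genes of each list with Cinnamomi Cortex at 500 µg/mL against vehicle (3 libraries each; vertical scatter within a list only separates points). Filled points have an adjusted p under 0.05 and the blue line is the median of the list. The 10 members spread to both sides of 0, the 21 cell cycle genes lay below it and the 13 ATF4 genes above it.

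Across the 57 libraries, levels of the members were related to each other in ways that depended on Cinnamomi Cortex. Pearson's r of log2 CPM between CDKN1A and GDF15 was 0.84 over all 57 libraries and -0.02 over the 48 without Cinnamomi Cortex, and between GDF15 and FDXR it went from -0.74 to 0.36. Between MDM2 and ZMAT3 it was 0.75 and 0.74. These values are descriptions, since the libraries share groups, sets and a scaling.

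The 2 tested genes most like each member over the 57 libraries, by Pearson's r, were SESN2 (0.92) and INKA2 (0.91) for CDKN1A, ALDOA (0.98) and TMSB10 (0.97) for GDF15, and SNTB1 (0.91) and SLC1A2 (0.90) for TP53INP1. For FDXR they were FTCD (0.90) and RAB11FIP4 (0.89), for RRM2B LPGAT1 and PANK3 (both 0.84), and for BTG2 SLC2A4 (0.83) and GREB1L (0.76). SNTB2 (0.83) and ZNF451 (0.78) were most like MDM2, RGN and CYP4F3 (both 0.79) most like SESN1, and SENP6 (0.78) and TAX1BP1 (0.77) most like FAS. For ZMAT3 the first was another member, MDM2 (0.75), followed by HYCC2 (0.74). Of these 20 genes, 3 were again among the top 2 without the Cinnamomi Cortex libraries, and 5 with Spearman's rho.

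Replicate 1 of set 6 was the highest of its 3 libraries in 6 of 6 groups for CDKN1A, MDM2, SESN1, BTG2 and ZMAT3. For CDKN1A with Astragali Radix, replicate 1 measured 157 and 151 CPM at 20 and 100 µg/mL, against 120.5 and 121 CPM and 116 and 112 CPM in the others. Without these 6 libraries, MDM2 lost its calls with Astragali Radix at 100 µg/mL (adjusted p = 0.0549) and 20 µg/mL (0.0735). TP53INP1 lost its call with Cinnamomi Cortex at 100 µg/mL (0.101), and GDF15 its call with Rehmanniae Radix Preparata at 100 µg/mL (0.0514). No call at 500 µg/mL with Cinnamomi Cortex against vehicle was lost.

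**Figure D5:**
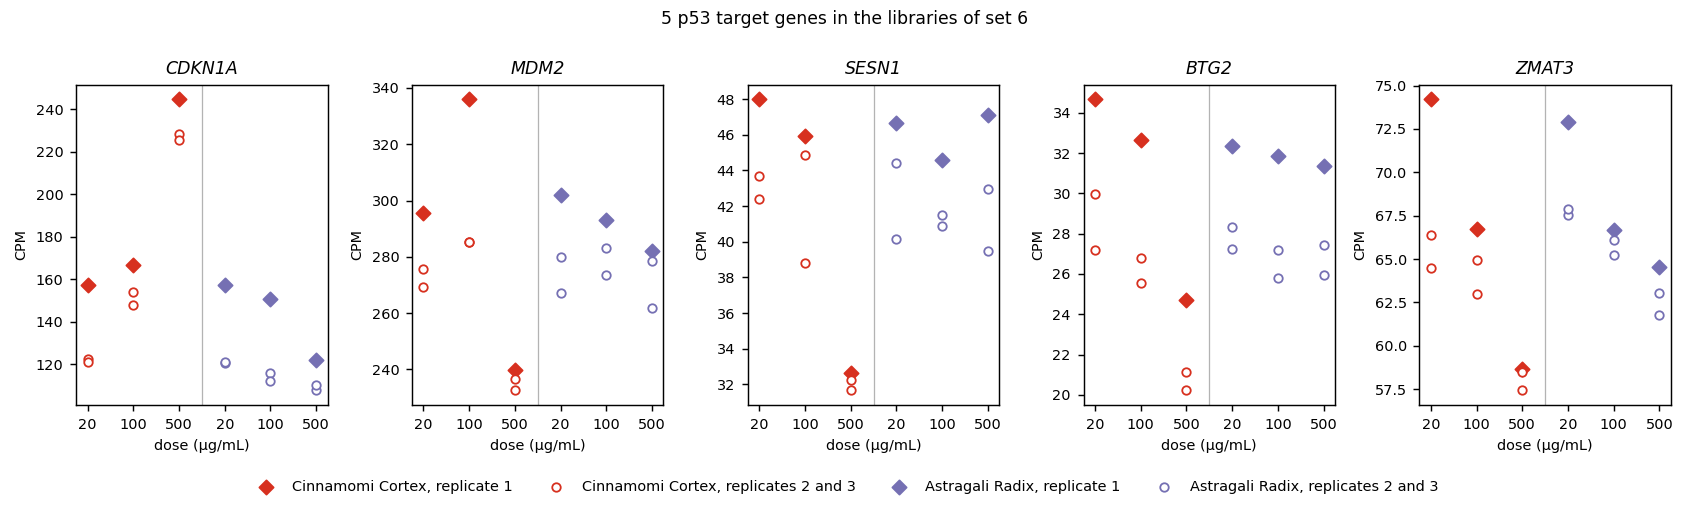
CPM of 5 members in the 18 libraries of set 6, by extract and dose in µg/mL. Filled diamonds are replicate 1 and open circles replicates 2 and 3. The diamond is the highest of the 3 in each of the 6 groups for all 5 genes.

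Palmul-tang had 1 library per dose, so that no test was made and values are log2 ratios to the vehicle mean. BTG2 measured 25.6, 26.6 and 29.2 CPM at 500, 100 and 20 µg/mL, all below the vehicle libraries, with a ratio of -0.47 at 500 µg/mL. TP53INP1 measured 31.4, 34.1 and 37.0 CPM at 500, 100 and 20 µg/mL, with ratios of 0.04, 0.16 and 0.27. At 500 µg/mL, GDF15 was at 0.33 (180.3 CPM), ZMAT3 at 0.27 and MDM2 at 0.26. Thus 4 of 10 members were past 0.25 in either direction, as were 26.6% of all genes.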

How the data were processed

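Messenger RNA of HepG2 cells was read from 1 deposited table of expected counts, estimated reads per gene that the authors did not normalise for depth or length, with 60675 Ensembl genes and 270 columns. That these are estimates follows from the 8.58% of values that are not whole. STAR 2.7.3a, RSEM 1.3.3, Trim Galore 0.6.5, FastQC 0.11.9 and the build GRCh38 are named in the submitters' processing notes, and the annotation release is not given in the sources used here. Of these columns, the 60 whose labels give vehicle or a dose of an extract were analysed, and 210 were not used. Symbols came from a supplied table of gene names, and from GENCODE release 29 for IDs without a symbol there. GENCODE release 29, which gave the positions, held 57055 of the IDs. Promoter windows came from the RefSeq table supplied (GRCh38.p14), and RRM2B and TP53INP1 had no entry.

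Counts were rounded and fitted in R 4.3.3 with edgeR 4.0.16. The fit was 1 quasi-likelihood model with a mean for each of 19 groups (57 libraries, 16167 genes after filterByExpr, TMM scaling, common dispersion 0.00312). Every adjusted p in the text is a two-sided edgeR quasi-likelihood value, adjusted by Benjamini-Hochberg over all genes of a comparison, with 0.05 as threshold, unless DESeq2 1.42.0 is named. SE is the size of the log2 fold change divided by the square root of F, and 95% intervals are 1.96 SE either side. CPM levels of all groups used TMM scaling over the 60 libraries (factors 0.833 to 1.05), and the Palmul-tang ratios a prior count of 2. Correlations between genes used log2 CPM scaled over the 57 libraries. The fit was tested on simulated data. In no pair of groups did every same-numbered pair correlate above 0.1, so the main fit did not pair samples by replicate number. This rule cannot exclude a replicate effect shared within a set. Every library correlated best with its own number in 5, 4 and 2 of 15 pairs of groups within sets 5, 6 and 7, against 5 of 108 between sets. Replicate 1 of set 6 was also the highest in every group of that set for several members. A replicate block within each set kept all 140 member calls and gained 30.

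The members and gene lists were chosen with earlier results of these data known. Named are the 10 members, up to 4 genes of each other list by adjusted p with Cinnamomi Cortex at 500 µg/mL and up to 2 with the other extracts, and the 2 genes most like each member. Some genes that meet this rule are left out of the text. Of the lists, 10 in number beside the members with 140 genes, only counts, medians and examples are given. Alternatives were RLE size factors, no filter on low counts, DESeq2, a replicate block, only the compared groups, another comparator, set 6 replicate 1 left out and each library left out in turn. Differences between dose trends and the separate dose steps of Cinnamomi Cortex were added after seeing the data. Total counts of 16.5 to 34.4 M and member counts of at least 321 reads bound the counting error of each value.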

Additional observations from a re-analysis of the deposited data

Results flagged for a closer look

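The dose trend of Cinnamomi Cortex differed from that of at least 1 of the 5 other extracts for 9 of the 10 members (6, 7, 7, 7 and 9 members per extract), by contrasts within the same edgeR model with Benjamini-Hochberg adjustment. All values are Cinnamomi Cortex minus the other extract, in log2 change per 5-fold step, and are given in the order Cnidii Rhizoma, Rehmanniae Radix Preparata, Astragali Radix, Sagunja-tang and Samul-tang. Each trend rests on the 3 libraries at 500 and the 3 at 20 µg/mL of its extract, with the spread of all 57 libraries.

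For GDF15 the trends differed by 1.17, 1.06, 1.24, 1.08 and 1.24. For CDKN1A they differed by 0.49, 0.39, 0.52, 0.42 and 0.46. For TP53INP1 the differences were 0.45, 0.40, 0.45, 0.48 and 0.32, and its trend was above 0 with Cinnamomi Cortex and below 0 with all 5 others.

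FDXR differed by -0.30, -0.26, -0.31, -0.24 and -0.23, BTG2 by -0.19, -0.18, -0.21, -0.15 and -0.23, and SESN1 by -0.14, -0.15, -0.23, -0.18 and -0.29. The BTG2 call against Sagunja-tang was kept in 15 of 19 alternatives and that against Rehmanniae Radix Preparata in 18. FAS differed from the last 4 extracts, by -0.15, -0.14, -0.16 and -0.19. Without the replicate 1 libraries of set 6 its call was lost against Rehmanniae Radix Preparata (adjusted p = 0.075), Astragali Radix (0.132) and Sagunja-tang (0.0587).

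MDM2 and ZMAT3 differed from Samul-tang, by -0.20 and -0.16. Against the 4 other extracts MDM2 was not called in this fit but was with no filter on low counts (adjusted p 0.0207, 0.0181, 0.0319 and 0.0377), and with a replicate block against Cnidii Rhizoma (0.0376). RRM2B did not pass the test against any of the 5.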

How the results depend on the processing

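Of 140 member calls over all comparisons, in which a trend and its 500 against 20 µg/mL comparison are the same test counted separately, 140 were kept with RLE size factors (0 gained), 140 with DESeq2 (9 gained), 133 with no filter on low counts (31 gained), 129 without set 6 replicate 1 (15 gained) and 129 when a fit held only the groups compared (18 gained). Leaving out each library in turn, the members called against vehicle at 500 µg/mL ranged from 3 to 5 with Cnidii Rhizoma, 1 to 3 with Rehmanniae Radix Preparata (lowest without vehicle replicate 3), 7 to 8 with Cinnamomi Cortex, 0 to 1 with Astragali Radix, 1 to 3 with Sagunja-tang (lowest without its replicate 3) and 2 to 3 with Samul-tang. Cnidii Rhizoma reached 3 without vehicle replicate 1 or 3 or its own replicate 1 or 3. At lower doses the range was 20 to 37 calls, with 20 without vehicle replicate 2. Trend counts did not move, except 0 to 2 with Samul-tang (2 without replicate 2 at 500 or replicate 3 at 20 µg/mL). The 500 against 20 µg/mL counts ranged from 13 to 15, the pairs at 500 µg/mL from 8 to 10 and the Palmul-tang median from 0.04 to 0.08.

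With Astragali Radix at 500 µg/mL, 1 call became 3 with DESeq2 or no filter and 2 without set 6 replicate 1 or with only the compared groups. Sagunja-tang at 500 µg/mL went from 3 to 5 without set 6 replicate 1. With the mean of the 20 µg/mL groups as comparator in place of vehicle, 12 of the 22 calls at 500 µg/mL were kept. Of the rest 9 were lost and 1 reversed, and 8 calls were gained. All calls with Cinnamomi Cortex were kept, so every loss was with the other 5 extracts. Samul-tang went from 3 to 0 and ZMAT3 with Sagunja-tang reversed to -0.0672 (adjusted p = 0.32, edgeR). Trend counts of 1 became 2 with DESeq2 (Cnidii Rhizoma, Rehmanniae Radix Preparata), no filter (Rehmanniae Radix Preparata, Astragali Radix, Sagunja-tang), set 6 replicate 1 left out (Cnidii Rhizoma) and only the compared groups (Rehmanniae Radix Preparata). Of the 20 most alike genes, 3 remained without Cinnamomi Cortex and 5 by Spearman's rho. The causes were not tested.

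With the replicate number as a block, 140 of 140 calls were kept and 13 gained, and with a block within each set 30 were gained. Under these blocks Astragali Radix at 500 µg/mL gave 3 and 4 calls, Sagunja-tang 5 and 5 and the Cnidii Rhizoma trend 2 and 2, and the block within set gave 2 for the Rehmanniae Radix Preparata trend. Every library correlated best with its own number in 5 of 108 pairs of groups from different sets, and in 5, 4 and 2 of 15 pairs within sets 5, 6 and 7.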
